A study of Drosophila melanogaster and Drosophila biarmipes with 20 samples.

Results

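Of 98646 regions listed as open by at least 1 of 10 ATAC-seq libraries of developing Drosophila melanogaster wings, 1514 (1.53%) were listed by both libraries of the latest stage, 78% of pupal development, and by none of the 8 libraries of 0%, 48%, 60% and 69%. They are called the regions listed at 78% alone, and were chosen by the presence and absence of entries in these lists. Overlapping entries of the 10 single-library lists were merged into a union, and a library counted as listing a region where any of its entries shared at least 1 base with it. Absence from a list means that no stretch there passed the caller's threshold in that library. The rule used every comparison of 78% with an earlier stage, so these comparisons are described below and carry no test.

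ATAC-seq uses a transposase that inserts sequencing adapters where DNA is accessible, so that accessible stretches gather reads. Late in pupal life the epidermal cells of the wing secrete and harden the adult cuticle. Tyrosine hydroxylase makes DOPA and DOPA decarboxylase makes dopamine, and enzymes secreted into the cuticle turn these and related catechols into melanin and cross-linking agents. Open chromatin near genes of that pathway, near cuticle protein genes and near the regulators that time them is therefore of interest at this age.

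All wings were male and came from lines kept at 20 °C, of D. melanogaster and the related species D. biarmipes, and the labels name no allele or treatment. The 5 groups of D. melanogaster held 2 libraries each, made from 24 wing discs at 0%, from 14 to 17 wings of at least 11 individuals at 48% (47% in the protocol text) and from 24 wings at 60%, 69% and 78%. Per the labels' protocols, only wings older than 60% were cut before disruption, so the handling of the 78% libraries is that of 69% and not that of the other stages. The pair of libraries of a stage are biological replicates per the labels, which leave unsaid how wings were shared out between them. Each library pools whole wings or wing discs, in which a change in the cells present and a change in access per cell cannot be told apart.

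Both 78% libraries stood apart in the share of tags in listed regions and of entries on the X, and not in the number of entries. Replicate 1 at 78% had the fewest tags, 56282342, and replicate 2 had 90501419, against 66369873 to 119278540 at the earlier stages. Of their tags, 37.5% and 39.2% lay in listed regions, against 46.3% to 62.8% earlier. They listed 68580 and 80702 entries, inside the earlier range of 41485 to 80705. The X chromosome held 6.78% and 5.91% of these entries, against 7.60% to 11.9% of the entries of earlier libraries. The fragment length setting in the file headers was 52 for both 78% libraries. It was 208 for replicate 1 of 0%, 162 and 206 for 48% and 138 for replicate 2 of 60%. For the other earlier libraries it was 50 to 58. The part of these differences in the results was not tested. The wing genes vg, nub, ap and rn, which encode transcription regulators of wing development, held listed regions in 10 of 10 libraries.

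By the same rule, 78% had the second most regions to itself among the 5 D. melanogaster stages. The wing disc at 0% had 5763, and 48%, 60% and 69% had 917, 297 and 701. As a share of the regions that both libraries of the stage listed, this was 15.8% at 0%, 3.3% at 48%, 0.866% at 60%, 1.71% at 69% and 4.11% at 78%, where both libraries listed 36850 regions. Stages at the ends of the series have neighbours on 1 side only. In D. biarmipes, whose genome assembly is another, the counts were 9773, 1629, 816, 642 and 927, and the shares 21.1%, 4.56%, 1.83%, 1.48% and 2.46%. In both species, then, 78% had more regions to itself than 60% and 69% had. This order turned in D. biarmipes without replicate 2, with 3858 at 78% against 5053 at 60% and 5445 at 69%. With an equal number of entries from each D. melanogaster library, 78% had 718 and came after 48%, with 1757.

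**Figure D1:**
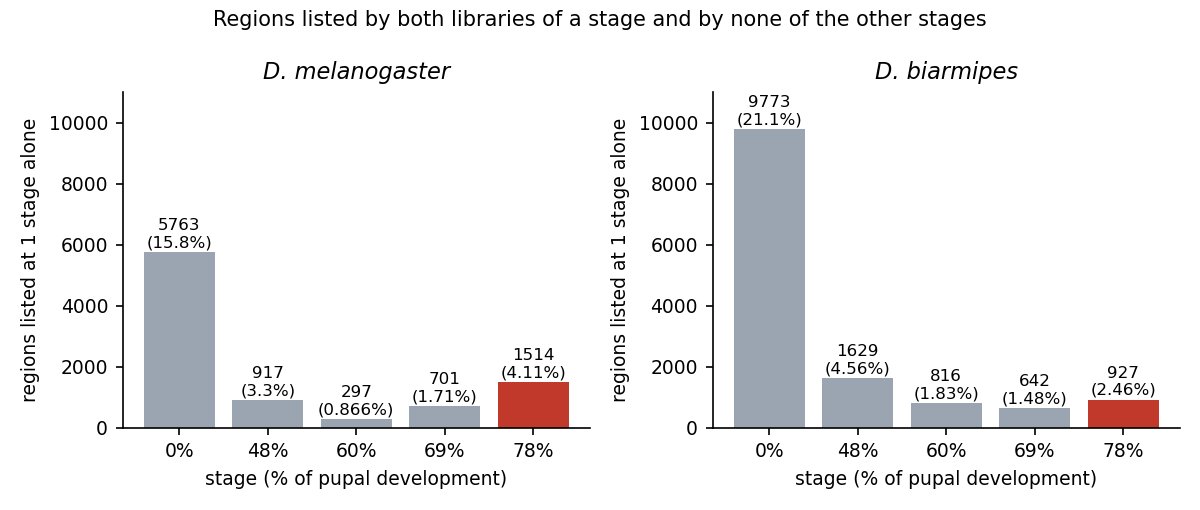
Number of regions listed by both libraries of a stage and by none of the 8 libraries of the other stages, for D. melanogaster (left) and D. biarmipes (right). Percentages are of the regions both libraries of that stage listed; at 78% they are 4.11% and 2.46%.

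The number turned on the threshold. Just outside it, 11320 regions were listed by 1 of the 78% libraries and by no earlier one, 4168 by replicate 1 and 7152 by replicate 2, with a median width of 101 bp. Another 1434 were listed by both 78% libraries and by exactly 1 earlier library, with a median width of 192 bp. That earlier library was replicate 1 of 69% for 745 of them, replicate 2 of 69% for 359, replicate 2 of 0% for 130 and replicate 1 of 60% for 104. The stage just before thus supplied most of the single listings that kept a region out. In the authors' lists called on pooled replicates, 1512 of the 1514 were listed at 78%, 215 (14.2%) were also listed at 69%, and 256 (16.9%) were listed at some earlier stage.

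Regions listed at 78% alone were narrow. Their width ran from 101 bp to 975 bp with a median of 162 bp and quartiles of 133 and 212 bp, and together they covered 275 kb. Of them, 1066 (70.4%) were under 200 bp and 8 (0.528%) over 500 bp. Among the other regions both 78% libraries listed, the median was 632 bp, with 6.40% under 200 bp and 61.1% over 500 bp. The rule itself favours narrow regions, since a wide one can be touched by more entries, so no weight is put on this contrast. Regions listed alone at 0%, 48%, 60% and 69% had median widths of 316, 293, 191 and 146 bp. Regions of 78% alone were thus closer in width to those of 60% and 69% than to those of the disc and 48%.

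The rule requires both libraries of 78% to list a region, and they listed different lengths of it. Replicate 1 listed 101 to 577 bp of a region, with a median of 101 bp, and replicate 2 listed 101 to 975 bp, with a median of 127 bp. A stretch of 101 bp, the narrowest among them, was the whole listing of 785 regions in replicate 1 and of 674 in replicate 2. The stretch listed by both had a median of 61.6% of the region's width and passed 50% of it in 1017 regions (67.2%). Replicate 2 listed more bases in 651 regions, replicate 1 in 441, and they were equal in 422. Across the 1514 regions, which share 2 libraries, Spearman's rho of the bases listed was 0.262. Since list order follows width, the median place was 75.3% down the list of replicate 1 and 71.8% down that of replicate 2, and 467 regions had more than 101 bp listed in each.

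**Figure D2:**
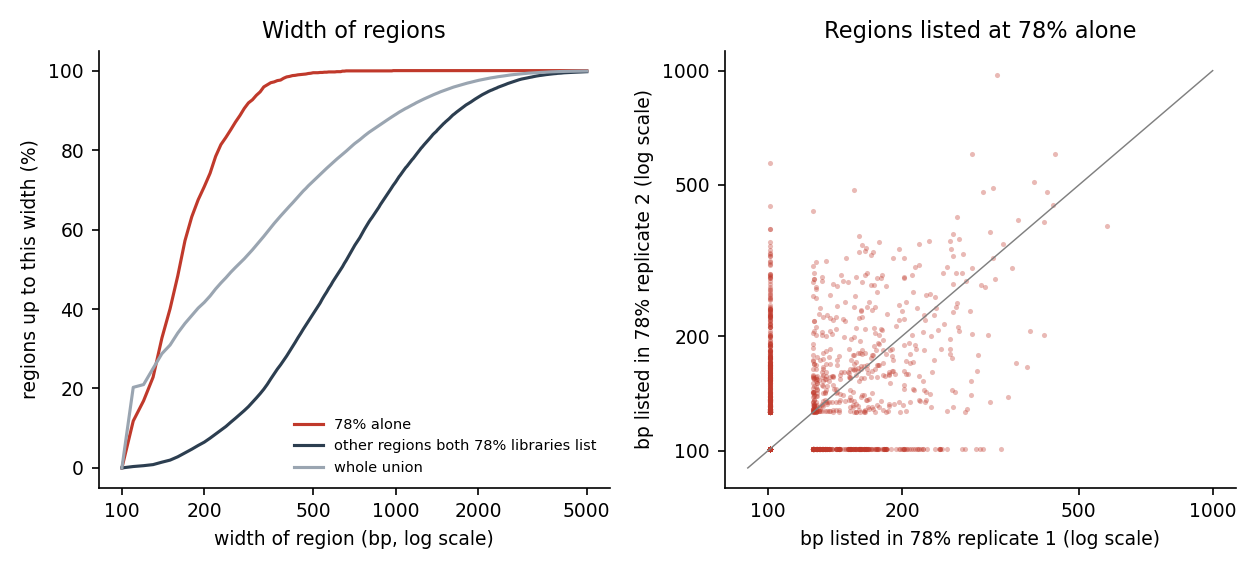
Left, share of regions up to each width (bp, log scale), for the regions listed at 78% alone, the other regions both 78% libraries listed and the whole union; their medians are 162, 632 and 257 bp. Right, bases listed in each of the 78% libraries (log scales), 1 point for each of the 1514 regions, with the line of equality; the rows of points at 101 bp are the narrowest listings.

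Most of these regions lay within 500 bp of an entry of some earlier library, at whichever stage. The nearest entry of any earlier library was a median of 241 bp away, with quartiles of 102.5 and 569.5 bp. It was under 500 bp away for 1070 regions (70.7%), under 100 bp for 360 (23.8%) and at least 10 kb for 14, and 23 regions lay on sequences with no earlier entry. Taken stage by stage, the median distance was 782.5 bp to an entry of 0%, 834 bp to 48%, 539 bp to 60% and 345 bp to 69%. Entries of 69% lay within 500 bp of 61.4% of the regions and entries of 48% of 32.0%. The stages also differ in their number of entries, and the part of that in these distances was not tested. The distance to the nearest other region of the union had a median of 130 bp. It was 137 bp for the other regions both 78% libraries listed and 149 bp for the whole union. A near neighbour was thus not particular to the regions of 78% alone.

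Relative to genes, 1167 of the regions (77.1%) overlapped the span of a protein-coding gene, as did 76.8% of the other regions both 78% libraries listed. Within 500 bp of either gene end lay 265 (17.5%), against 32.9% of the other regions of 78%, which are wider, and 22.4% of the union. Over regions assigned to a gene, the median distance to a gene end ran the other way. It was 1490.5 bp, against 1738 bp for the other regions of 78% and 2481 bp for the union. Regions with no gene within 10 kb are left out of it: 11.0% of those of 78% alone, 6.61% of the others and 6.81% of the union. These medians thus cover unlike parts of each set. Of the regions of 78% alone, a further 181 were assigned to a gene within 10 kb, and 166 (11.0%) to none. The 1348 assigned regions fell to 1112 of the 12152 genes that had any region, and 1.47% of all assigned regions of the union were regions of 78% alone. Of those genes 956 held 1, 119 held 2 and 37 held 3 or more. The median span of the 1112 genes was 5609 bp, against 2393.5 bp for all 12152. Of the 1112 genes, 217 (19.5%) also held a region listed by both libraries of 69% and of 78% and by none before, against 906 of all 12152 (7.46%). The part of gene length and of the number of regions per gene in this difference was not tested.

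Genes of the melanin and sclerotin pathway had the highest share among 17 gene lists under the rule as given. Among 28 genes of pigmentation and sclerotization, 8 of 159 regions (5.03%) were listed at 78% alone, against 1.47% of all assigned regions, and of the 73 that both 78% libraries listed they were 11.0%. They lay in Ddc (4), ple (2), amd (1) and yellow-g (1). Of the 4 genes, Ddc encodes DOPA decarboxylase, ple tyrosine hydroxylase, amd a relative of Ddc needed for cuticle, and yellow-g a member of the yellow family known for its part in the eggshell. The planned symbols Dat and hn of this list had no match, and Hn, with 2 of its 4 regions listed at 78% alone, was not counted. The excess of the list as counted depended on which 78% library was used. Without replicate 1 of 78% the list's share was 7.14%, below the 9.30% of all assigned regions, and without replicate 2 it was 10.4% against 6.39%. The file headers place the libraries in dated folders, the first with replicate 1 of every stage and both of 48%, the second with the others. Each folder holds 1 library of 78%, and the second holds none of 48%. The pooled setting has 1 list per stage, so in these settings 1 list at 78% sufficed. Within the first folder the share was 11.4% against 8.77%, within the second 11.0% against 12.9%, and in the pooled lists 10.8% against 10.9%. Muscle markers were then higher in the second (16.5%) and in the pooled lists (13.8%), as they were without replicate 1 of 78% (14.0%). With more than 101 bp required in each 78% library, the share of the pigmentation and sclerotization list was 4.40% against 0.457% of all assigned regions.

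A cluster of 7 regions within 5375 bp of arm 2L, from 19113795 to 19119169, ran from the end of amd across CG10561 into Ddc. Ddc (Dmel_CG10697) spans 19116483 to 19120306, CG10561 spans 19114401 to 19116570, and amd (Dmel_CG10501) spans 19110154 to 19114110. The region from 19116131 to 19116493 reached the first bases of the Ddc span and lay otherwise in CG10561, with 180 bp listed in replicate 1 and 289 bp in replicate 2. Inside Ddc, with gaps between them, followed the regions from 19117371 to 19117760 (248 and 294 bp), from 19117834 to 19118018 (128 and 164 bp) and from 19118931 to 19119169 (156 and 239 bp). By the rule, no earlier library listed any base of these 4. The high-coordinate end of Ddc was open throughout, since the region from 19119207 to 19121123 was listed in 10 of 10 libraries, over 941 to 1477 bp before 78% and over 1716 and 1759 bp at 78%. Between them, a stretch from 19118542 to 19118865 was open from 69% on, with 303 and 252 bp listed at 69%, 323 and 171 bp at 78% and none before.

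The neighbours of Ddc shared the change to different extents. CG10561 had 2 regions assigned to it, and both were listed at 78% alone. Its low-coordinate end also overlapped a region assigned to amd, from 19114084 to 19114790, that was listed in 10 of 10 libraries, so 7.19% to 14.8% of its span was listed before 78% and 53.7% and 48.8% at 78%. The wider, from 19115168 to 19115804, had 577 bp listed in replicate 1 and 391 bp in replicate 2, and the other, from 19114847 to 19115022, had 129 and 176 bp. In amd the only such region, from 19113795 to 19113897, had 101 bp listed in each 78% library, and 2 of its 5 regions were listed in 10 of 10 libraries.

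At ple, the gene of tyrosine hydroxylase, the listed chromatin widened over most of the gene. The gene (Dmel_CG10118) spans 6713356 to 6719525 on arm 3L. The widest of all the regions listed at 78% alone, 975 bp from 6713052 to 6714026, covered its low-coordinate end, with 328 bp listed in replicate 1 and 975 bp in replicate 2. The other, from 6720171 to 6720449, lay 645 bp beyond the high-coordinate end, with 278 and 279 bp listed. The rule missed the largest gain: the region from 6714760 to 6718421 had 3162 and 3662 bp listed at 78%, against 0 to 404 bp before, but small entries at 0%, 60% and 69% kept it out.

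**Figure D3:**
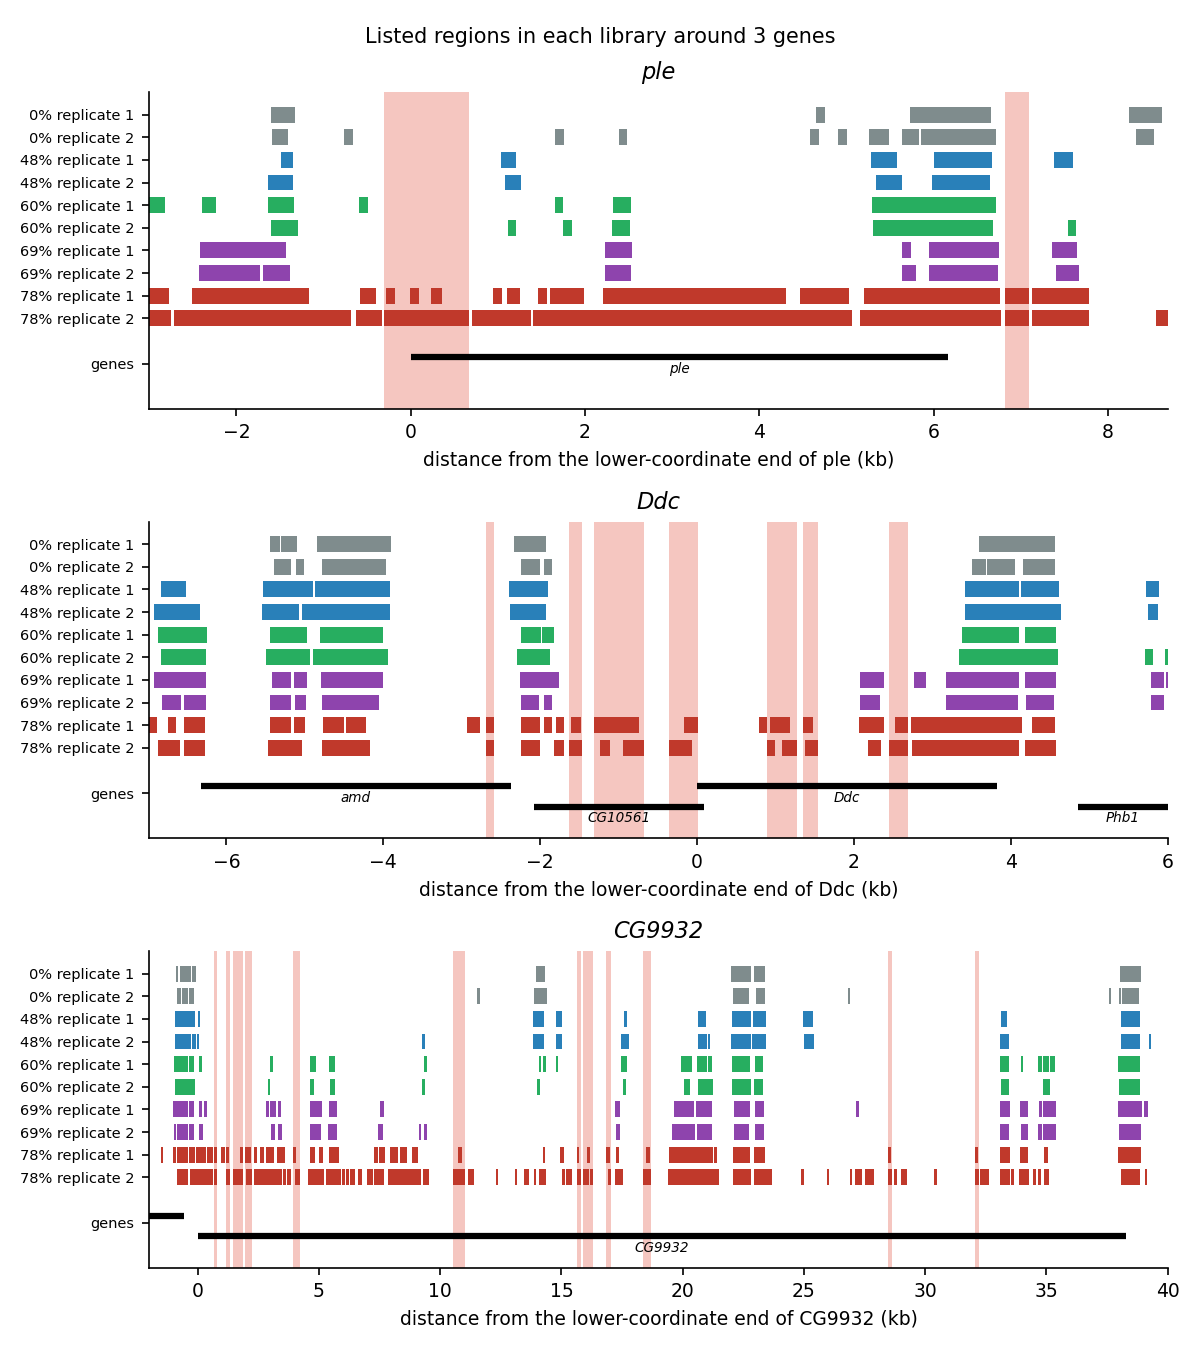
Entries of each of the 10 libraries around ple, Ddc and CG9932 (distance in kb from the lower-coordinate end of the gene). Pink bands mark the regions listed at 78% alone and black lines the gene spans, named where long enough. By the rule, only the bottom 2 rows, the 78% libraries, have entries in the bands.

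The share of a gene's span inside listed regions also counts entries in regions that the rule left out. It uses the same libraries. Most genes given here were named for holding regions of 78% alone, so a higher share at 78% is partly set by the rule. For ple it was 8.83% and 18.7% at 0%, 10.3% and 10.8% at 48%, 19.2% and 20.5% at 60%, 10.1% and 11.0% at 69%, and 74.5% and 97.7% at 78% (replicates 1 and 2 in turn). For Ddc it was 5.91% and 7.90%, 10.8% and 10.5%, 11.7% and 12.6%, 28.8% and 23.6%, and 54.1% and 51.0% over the same stages. Both 78% libraries stood above the 8 earlier ones at either gene, and at Ddc the 69% libraries were the next highest. The share for amd was 31.7% and 30.5% at 78%, inside its earlier range of 28.5% to 40.7%. Over all 12690 protein-coding genes with any listed base, both 78% libraries were above all 8 earlier ones at 889 (7.01%) and below them at 947 (7.46%).

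Among the 28 pigmentation and sclerotization genes, 5 were above (17.9%) and 2 below (7.14%). Besides ple and Ddc, those above were PPO2, a prophenoloxidase gene, and yellow-b and yellow-c of the yellow family. At yellow-c the listed share was 86.3% and 70.5% at 78% against 12.7% to 48.4% before, and at PPO2 it was 38.6% and 40.7% against 0% to 33.8%. Those below were yellow-d (5.41% and 6.81% against 11.1% to 31.0%) and yellow-e2, which was listed at 0 bp in both 78% libraries. The ebony gene e, whose product joins dopamine to beta-alanine, was highest at 69% (51.1% and 48.4%) and had 23.2% and 30.3% at 78%. The yellow gene y itself had no region listed at 78% alone among its 3, and its listed share at 78%, 2.66% and 3.19%, was among its lowest.

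**Figure D4:**
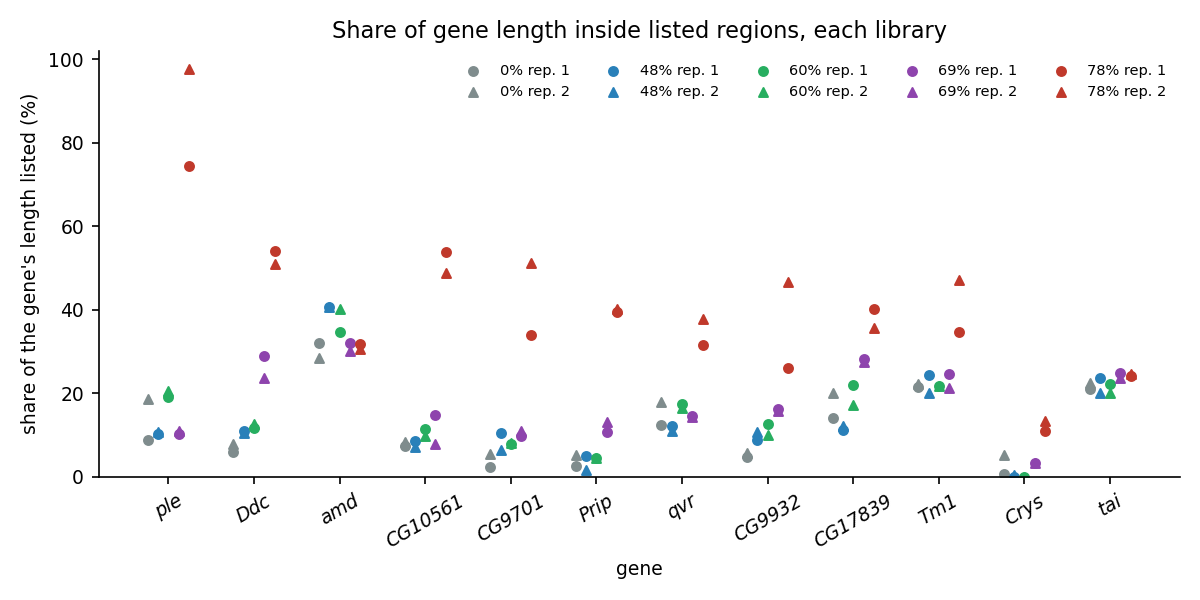
Share of the gene's span inside listed regions (%), 1 point per library, for 12 genes; circles are replicate 1 and triangles replicate 2 of each stage. At ple, Ddc, CG10561, CG9701, Prip, qvr, CG9932, CG17839, Tm1 and Crys both 78% points lie above the 8 others. At amd and tai they do not. All 12 genes hold regions of 78% alone, and named genes not drawn went both ways (DIP-lambda above, Msp300 not).

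Another run of neighbouring genes lay on arm 2R, where 7 regions from 11436645 to 11453842 fell in Prip, which encodes an aquaporin, in qvr, which encodes a small membrane-anchored protein that regulates the Shaker potassium channel, and in E(Pc), a chromatin regulator gene. The widest of them, 653 bp in Prip from 11441074 to 11441726, had 423 and 479 bp listed. The widest in qvr, 478 bp from 11443873 to 11444350, had 304 and 478 bp listed. The listed share of Prip was 39.3% and 40.2% at 78% against 1.49% to 13.1% before, and that of qvr was 31.6% and 37.8% against 10.8% to 18.0%. E(Pc), with 1 such region, had 15.8% and 20.4% at 78%, inside its earlier range of 8.97% to 21.0%.

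By number, CG9932 on 2L held the most, 12 of its 65 regions, all inside the gene (13021868 to 13060140). They were 138 to 485 bp wide, and the nearest earlier entries were 187 to 1214 bp away. The listed share of CG9932 was 4.80% and 5.56% at 0%, 8.74% and 10.6% at 48%, 12.7% and 9.93% at 60%, 16.3% and 15.8% at 69%, and 26.1% and 46.6% at 78%. It was thus higher at each later stage on average, with the widest gap between replicates at 78%. Next came DIP-lambda with 11 of 233 regions, an immunoglobulin-family gene of neuronal surface recognition, and CG17839 with 10 of 108. At CG17839 the share was 40.1% and 35.5% at 78% against 11.1% to 28.2% before.

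Of the other genes with most such regions, CG40191 had 7 of 24, none of them inside its span, and CG40498, Pzl, rl, Myo81F and Msp300 had 5 each. The gene rl encodes the ERK-type MAP kinase, Pzl a Piezo-related protein, Myo81F a myosin heavy chain-like protein and Msp300 a giant protein that anchors nuclei. CG40191, CG40498, rl and l(2)41Ab (4 of 35) lie within the first 2 Mb of 2R together with DIP-lambda, and Pzl and Myo81F near the low-coordinate end of 3R. The X-linked gene ovo, whose epidermal isoform directs cuticular hairs, had 4 of 22, from 5057491 to 5063115, of which the widest (314 bp from 5062802 to 5063115) had 253 and 304 bp listed. The membrane skeleton gene alpha-Spec had 4 of 19, and tai, a partner of the ecdysone receptor in activating genes, had 4 of 75. In tai they were 101 to 170 bp wide, and its listed share of 24.1% and 24.7% at 78% lay inside the earlier range. CG18179 is a small gene of 870 bp with no listed base before 78%. There 3 of its 4 regions were listed at 78% alone, and 24.6% and 49.9% of its span was listed.

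Cuticle protein genes had a share near that of all genes. Of 464 regions of 129 structural cuticle protein genes, 5 (1.08%) were listed at 78% alone, against 1.47% of all assigned regions. They lay in Crys, a cuticle protein gene known from the lens (2 of 7), Ccp84Ae, Cpr62Bc and Cpr35B. In Crys the regions from 11946277 to 11946450 (101 and 161 bp listed) and from 11946496 to 11946726 (231 and 141 bp) on 2L took its listed share to 11.1% and 13.4%, against 0% to 5.09% before. The region at the high-coordinate end of Ccp84Ae, from 6691724 to 6691952 on 3R, had 130 and 229 bp listed. In the authors' lists called on pooled replicates it was also listed at an earlier stage. In the single-library lists, the span of Ccp84Ae itself had no listed base before 78% or in replicate 1 of 78%, and 357 bp (40.9%) in replicate 2. Chitin synthesis and modification genes had 2 of 351 (0.570%), in the chitin-binding protein gene obst-J and in Chs2, a chitin synthase gene known from the gut. The lipid and barrier list had 5 of 257 (1.95%): Cpr, the cytochrome P450 reductase gene, had 2, and Baldspot, a fatty acid elongase gene, FASN2 and ACC, both of fatty acid synthesis, shared the rest.

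The lists of ecdysone, wing patterning and wing form genes held the following. Ecdysone receptor and response genes had 9 of 835 (1.08%): tai had 4, the nuclear receptor gene Eip75B 2, and ftz-f1, Eip74EF and Eip63E 1 each. The wider of those in Eip75B, 307 bp from 18030253 to 18030559 on 3L, had 218 and 307 bp listed. Wing patterning genes had 3 of 971 (0.309%), 1 each in nub, rn and vn. Apical matrix, planar polarity and wing hair genes had 6 of 692 (0.867%), 1 each in trc, mwh, jv, fry, pk and dpy. Of 125 regions of clock genes 2 (1.60%) were listed at 78% alone, in Clk and cwo, and of 93 regions of cell death genes 1, in the apoptosis inhibitor gene Diap1. Cytochrome P450 genes had 4 of 311 (1.29%), and cytosolic ribosomal protein genes 0 of 220.

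Markers of other tissues that a whole wing could hold were present to differing extents. Muscle markers had 14 of 586 regions (2.39%), in 6 of 29 genes: Msp300 (5), Tm1 (3), Mp20 (2), Tm2 (2), Act79B (1) and Strn-Mlck (1). In Tm1, a tropomyosin gene used also outside muscle, the 3 regions were 246 to 328 bp wide. The listed share of Tm1 was 34.6% and 47.2% at 78% against 20.1% to 24.7% before, while that of Msp300 was 23.1% and 31.4% against 10.6% to 27.1%. Without replicate 1 of 78% the muscle share was 14.0% against 9.30% of all assigned regions, and without replicate 2 it was 7.04% against 6.39%. Among regions with no earlier entry within 500 bp it was 0.341%, below the 0.391% of all. Sensory organ and neuron markers had 4 of 475 (0.842%), in the GABA receptor gene Rdl (2), the mechanosensory channel gene nompC and the homeobox gene pros. Dpr and DIP recognition genes had 19 of 1265 (1.50%), of which DIP-lambda held 11. Chemoreceptor and ppk channel genes had 13 of 991 (1.31%), hemocyte markers 3 of 209 (1.44%), in srp, drpr and Pxn, and trachea markers 1 of 396 (0.253%), in the FGF receptor gene btl. What these tissues add to the regions listed at 78% alone was not tested.

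Along the genome, 27.6% of the regions (418) lay within 5 kb of another, in 176 clusters. Pairs made up 142 of these, 19 held 3 and 15 held 4 or more. The median distance from a region to the next was 42014 bp. The largest cluster, of 8 regions, lay on 2R from 1271766 to 1278671 beyond CG40191, and 2 more of the 5 largest, of 7 and 6 regions, lay on 2R from 1015292 to 1034289 and from 965190 to 976465, assigned to no gene. The first and second megabase of 2R held 30 of 394 and 33 of 363 union regions (7.61% and 9.09%), and no other megabase of the large arms held more than 25. By share, the first megabase of 3R was higher, with 7 of 37 (18.9%), and 3R from 3 to 4 Mb was between them, with 8 of 96 (8.33%). The first 2 Mb of 2R lie next to the centromere. Left out, they take the Dpr and DIP share to 0.775% against 1.44% of all assigned regions.

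Among the large arms, the X stood apart. Of the 1514 regions, 32 (2.11%) lay on the X, which held 8.05% of the union and 7.51% of the regions both 78% libraries listed. As a share of the regions both 78% libraries listed, those of 78% alone were 1.16% on the X (exact 95% binomial interval 0.792% to 1.63%, for counting error only). They were 3.89% on 2L, 4.76% on 2R, 4.18% on 3L and 4.17% on 3R, with intervals that together ran from 3.47% to 5.27%. Chromosome 4 had 4 of 193 (2.07%), the Y 16 of 148 (10.8%) and the sequences outside the arms 50 of 448 (11.2%), with wide intervals.

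Counts by megabase give the same low X number in another form. Of the 24 megabase bins of the X 16 held any, at most 5, while the median bin held 12.5 on 2L, 13 on 2R, 12 on 3L and 13 on 3R. The X also held fewer union regions, 7944 against 19387 to 26185 on the other large arms, and these bin counts are not scaled for that. Regions listed at the other stages alone showed another balance, with 16.0% on the X at 0%, 37.4% at 48%, 22.2% at 60% and 9.84% at 69%. The share of list entries on the X, which are not merged regions, was also lowest in the 78% libraries, as given above, and males carry a single X. The part of depth and of X copy number in this low share was not tested. The X share of the regions listed at 78% alone was 1.26% within the first dated folder and 1.32% within the second, each with 1 library of 78%. It was 3.21% where each 78% library listed more than 101 bp.

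**Figure D5:**
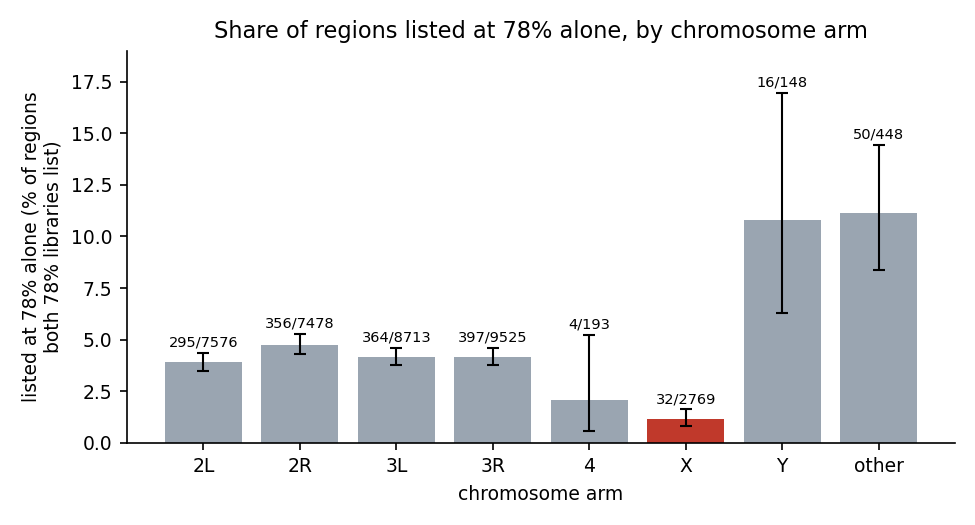
Regions listed at 78% alone as a share (%) of all regions both 78% libraries listed, by chromosome arm, with exact 95% binomial intervals and the counts above each bar. The X, in red, is lowest at 1.16%, and the Y and the sequences outside the arms are highest at 10.8% and 11.2%.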

How the data were processed

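Regions came from the authors' lists, 1 per library. The submitters' processing notes name Bowtie2, SAMtools, Picard, HOMER and MACS2, without versions, and the build dm6. Per the file headers, HOMER findPeaks ran in histone style without input (window 100 bp, Poisson p 0.001, local filter 10 kb with p 0.0001, genome size 120 Mb). The deposited files hold coordinates, written here counted from 1, and a constant score of 1, not used. Joining, overlap and gene assignment were run in Python 3.11.15 (pandas 2.3.3, scipy 1.17.1) and tested on simulated data.

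Genes are RefSeq spans of the same assembly, with no strand or exons. Each region went to an overlapping protein-coding gene, by nearest end if several, and otherwise to the nearest gene end within 10 kb. No genome sequence was used here, so the planned motif search was not run. Of the symbols on 17 gene lists, 10 had no match. The members and lists were chosen with earlier results of these data known. Genes named are the 15 with most regions of 78% alone, up to 2 per list, those of the 6 widest regions and 5 largest clusters, and y; others were chosen after their values were seen. Headers place replicate 1 of each stage and both 48% libraries in one dated folder and the rest in a second.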

Additional observations from a re-analysis of the deposited data

How the results depend on the processing

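No paired analysis was possible because the results come from no test. With 1 library left out at a time, the number of regions of 78% alone ran from 1548 to 8875, their X share from 1.08% to 2.27%, the median distance to an earlier entry from 241 to 275 bp, the median width from 101 to 166 bp and the share in clusters from 27.5% to 68.9%. Single libraries that moved the number most were replicate 1 of 78% (8875 without it), replicate 2 of 78% (5994) and replicate 1 of 69% (2286), and with replicate 1 or replicate 2 of every stage left out at once, for which only counts were run, it was 12207 and 8122. The counts of regions at 1 other stage alone then ran from 14410 to 22254 at 0%, 2819 to 3269 at 48%, 1200 to 4461 at 60% and 4709 to 5974 at 69%. In D. biarmipes they ran from 15946 to 19893, 3771 to 6545, 3299 to 5053, 2860 to 5445 and, at 78%, 3858 to 6510.

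Under other settings the same 5 values, where they moved, are given in that order. A number moved if it changed by more than 1.5 times, and a share if it left its exact 95% binomial interval. A median moved if it changed by at least the SD of the medians of the 2 libraries of 78%. That SD was 18.4 bp for width and 4.6 bp for distance. Width and distance were not computed for bins of 1 kb. Counting an earlier library only from 50% of a region gave 2536 regions, a distance of 64 bp, a width of 221 bp and 36.9% in clusters. Requiring no earlier entry within 500 bp gave 444, a distance of 865 bp and 16.0% in clusters, and bins of 1 kb gave 902 and 23.4% in clusters. Pooled lists, 1 per stage, gave 11535, 1.05%, 253 bp, 101 bp and 75.3%. The first 50% of both 78% lists gave 81, 4.94%, 249 bp, 296 bp and 19.8%. An equal number of entries per library gave 718, 3.90%, 387 bp, 248 bp and 22.3%, with 1757 regions at 48% alone and 312 at 69% alone. The 6 libraries with a short fragment length setting, none of them of 48%, gave a distance of 257 bp. Each dated folder holds 1 library of 78%. The first gave 7854, 1.26%, 267 bp, 101 bp and 64.8%, and the second 13223, 1.32%, 298 bp, 101 bp and 78.1%. Requiring more than the narrowest listing in both 78% libraries, chosen after the data had been seen, as were leaving out the first 2 Mb of 2R and the list shares under each setting, gave 467, 3.21%, 212 bp in width and 16.7% in clusters. The X share stayed below 8.05%, that of the union of all 10 libraries, in all of these. Several settings build another union, whose own X share was not computed. With genes assigned within 2 kb or by overlap alone, 31 list counts stayed within 1.5 times and 3 fell by more: sensory and neuron markers to 2 under both, and chitin genes to 1 under overlap. The motif alternative was not run. The lists give no depth per region, so absence from a list is not absence of open chromatin. The causes of these shifts were not tested.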
